A study of Mus musculus with 15 samples.

Results

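The cytosolic ribosomal protein genes were taken as 72 of the 17493 genes in the count tables. Membership followed the gene symbol: Rpl or Rps with a number, together with Rplp0, Rplp1, Rplp2 and Rpsa, leaving out pseudogene symbols and the Rps6k kinases. The symbol matched 84 genes, and the 72 that reached a mean of 10 CPM (counts scaled to a common library size) over the 15 libraries were kept; all 72 had enough counts to be tested. By symbol alone (Rpl or Rps), 42 were counted to the large subunit and 30 to the small subunit. The members were spread over 19 chromosomes, with at most 12 on one chromosome (chromosome 7). Among the members nearest the minimum was Rpl7l1, at a mean of 77.6 CPM, and the nearest genes below it were Rps15a at 6.47 CPM and Rpl34 at 5.39 CPM.

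Each ribosome carries one copy of nearly every ribosomal protein, so the cell makes these proteins in matched amounts, and their mRNAs are among the most abundant in a lymphocyte. Most of these mRNAs begin with an uninterrupted run of pyrimidines, the 5′ terminal oligopyrimidine (TOP) tract, through which mTOR and the RNA-binding protein Larp1 control their translation and stability. A resting T cell that meets antigen enlarges and builds new ribosomes before it divides, and part of the control of ribosomal protein synthesis in that step is known to lie in translation of mRNA already present.

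The samples were CD8+ T cells from spleen and lymph nodes of female OT-I mice, strain label C57BL/6-Tg(TcraTcrb)1100Mjb/Crl, whose transgenic T cell receptor recognises an ovalbumin peptide on MHC class I; all 5 groups carry this transgene. One group was left without stimulation (0 h). The other groups were cultured for 8 h or 22 h either with immunofilaments (IF), filamentous synthetic antigen presenters carrying SIITFEKL-loaded MHC and interleukin-2, or with Flt-3Ligand dendritic cells (DC) pulsed with SIITFEKL, and every group held 3 libraries. Wells held 50000 T cells in RPMI medium, with 20000 dendritic cells where these were used. Viable CD8+ CD103- cells were sorted and sequenced in bulk with an adapted CEL-seq protocol, which tags transcripts near the 3′ end. The sample titles end in Don1, Don2 or Don3 in each group, and the labels do not say whether this marks a donor animal or whether the same animals gave all groups, so the p-values measure only the spread between libraries.

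Libraries held 2892874 to 19806730 counts. All 10 CD8 T cell markers were detected in every library, at a summed 10900 to 11800 CPM in unstimulated cells and 5090 to 7880 CPM in the stimulated groups. Dendritic cell markers did not move together. Summed over the 19 markers they were at 1050 to 1920 CPM in unstimulated cells, where 14 were detected in all 3 libraries. With IF the sums were 647 to 829 CPM after 8 h (11 detected) and 652 to 944 CPM after 22 h (16), and with DC 1470 to 1630 CPM and 983 to 1240 CPM (17 at each time). Fscn1 was at 126 to 168 CPM at DC 8 h and 72.9 to 94.8 CPM at DC 22 h against 0 to 6.75 CPM in unstimulated cells, and Zbtb46 was at 0 in all unstimulated and IF 8 h libraries and Batf3 in all IF 8 h libraries, whereas H2-Ab1 (137 to 391 CPM) and Xcr1 (9.54 to 45.6 CPM) were highest in unstimulated cells. The part of either marker set in the ribosomal protein results was not tested. Replicates 2 and 3 of IF 22 h stood apart, with 0.179% and 0.146% of counts in mitochondrial ribosomal RNA against 1.82% to 4.49% in the other 13 libraries, and results at IF 22 h are also given without them, which leaves 1 IF 22 h library that the fit assumes to vary like the other groups.

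The start of each gene was examined because the TOP tract is the feature these mRNAs are known to share. RefSeq promoters (GRCm38.p6) were found for 53 of the 72 genes, giving 63 promoters. A run of at least 8 uninterrupted C or T letters on the coding strand lay at least partly within 30 bases of the annotated start in 61.9% of these promoters, against 27.3% of all 32851 promoters. The same run on the other strand was present in 22.2% of members' promoters and 30.7% of all promoters. The motif CCGGAA, searched on both strands of the 300-base window, occurred in 47.6% against 14.9%. These shares describe letters near an annotated start and do not establish where transcription began. The windows of 30 bases below are shown for genes the results turn on, with the longest pyrimidine run in capitals.
Rpl5 (chr5:107900500-107900529, plus strand): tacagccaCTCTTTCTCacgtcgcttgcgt
Rps6 (chr4:86857347-86857376, minus strand): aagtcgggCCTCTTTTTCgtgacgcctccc
Rpl38 (chr11:114668570-114668599, plus strand): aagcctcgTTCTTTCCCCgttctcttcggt
Rps12 (chr10:23787180-23787209, minus strand): accgccggCCTTTTCCCCTgccgccgccga
Rpl35 (chr2:39005117-39005146, minus strand): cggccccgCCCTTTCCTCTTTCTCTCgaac
Rps25 (chr9:44407684-44407713, plus strand): ccaccgggCTTCCTTTTTTTCCgacatctt
Rpsa (chr9:120127778-120127807, plus strand): gccgcccgTCCTTTCgcgctacccggggac
Rps27l (chr9:66946056-66946085, plus strand): cgcctccaCTCCTCTCCactcctccccgcc
Rpl7l1 (chr17:46782667-46782696, minus strand): gaggcgggCCTCTCTaccccgcccggtgag
The run is 9 bases in Rpl5, 10 in Rps6 and Rpl38 and 18 in Rpl35. Rps27l, the member that moved opposite to the others below, also holds a run of 9, and the longest in Rpl7l1 is 7. Relative to the annotated start, the run began at -20 in Rpl5, -22 in Rps25 and Rps27l and -32 in Rpl7l1. In these genes it ended before the start. It began after the start in Rps12 (9) and Rpsa (21). Of the genes shown, only Rps6 (-1), Rpl38 (-2) and Rpl35 (-7) had a run that spanned the start.

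Ribosomal protein transcripts took a smaller share of all counts in every stimulated group than in unstimulated cells. No unstimulated group was cultured for 8 or 22 h, so stimulation and time in culture cannot be told apart in these comparisons. The 72 genes together held 25.68%, 27.54% and 25.44% of the counts in the 3 unstimulated libraries. The share was 21.47%, 23.02% and 22.32% at IF 8 h and 21.21%, 20.31% and 23.34% at DC 8 h. At 22 h it was 20.54%, 24.00% and 23.29% with IF and 20.44%, 18.12% and 19.72% with DC. No stimulated library reached the lowest unstimulated one, and the DC 22 h libraries were the lowest group. Depth does not limit these shares: the 95% Wilson interval of the shallowest library (IF 8 h replicate 2) ran from 22.97% to 23.07%, for counting error only.

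**Figure D1:**
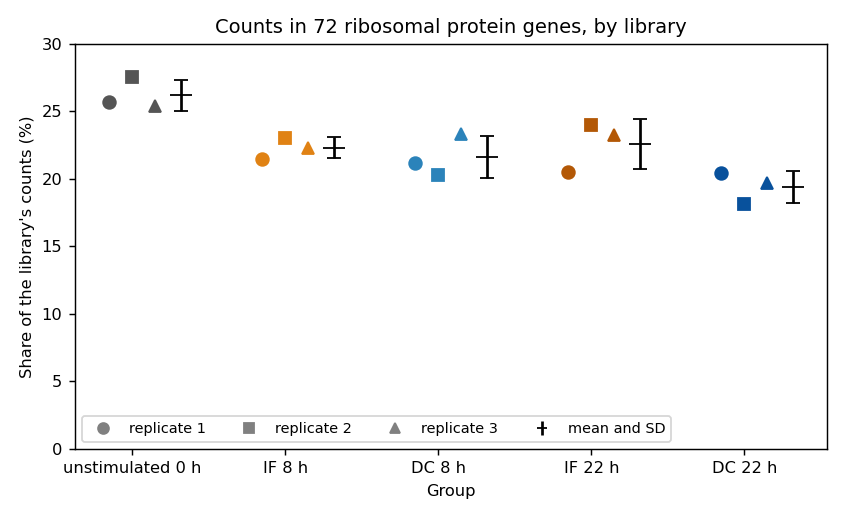
Percentage of a library's counts that fell in the 72 ribosomal protein genes (y axis) by group (x axis); symbols mark replicates 1 to 3, and the black bar gives the mean and SD of 3 libraries. The unstimulated libraries lie at 25.44% or above and every stimulated library at 24.00% or below.

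The mean share was 26.2% ± 1.15 (SD, n = 3) without stimulation and 19.4% ± 1.19 (SD, n = 3) at DC 22 h. In a two-sided exact permutation test of 3 against 3 libraries, each of the 4 stimulated groups differed from unstimulated cells with p = 0.1, the smallest value this design allows, and an adjusted p of 0.16 over the 8 comparisons. With IF the differences were -3.95 percentage points after 8 h and -3.61 after 22 h, and with DC they were -4.60 and -6.80. IF exceeded DC by 3.19 points at 22 h, with no overlap (exact permutation p = 0.1, adjusted 0.16), and by 0.65 points at 8 h, where the groups overlapped (exact permutation p = 0.6, adjusted 0.686). From 8 to 22 h the share moved by 0.343 points with IF (exact permutation p = 0.7, adjusted 0.7) and by -2.19 points with DC (exact permutation p = 0.2, adjusted 0.267), with overlap in both. Leaving out 1 library gave -0.352 to 1.38 points for the change with IF, below 0 without IF 22 h replicate 2 or IF 8 h replicate 1, and -2.85 to -1.33 points for the change with DC. For IF against DC it gave 2.49 to 4.22 points at 22 h and -0.00621 to 1.51 at 8 h, below 0 without DC 8 h replicate 2. Against unstimulated cells the ranges were -4.34 to -3.29 and -4.30 to -2.57 points for IF after 8 and 22 h, and -5.46 to -3.94 and -7.30 to -6.13 for DC. In the DC groups, deviations from group means of same-numbered libraries correlated at 0.136 to 0.439 over genes. Those of differently numbered libraries correlated at -0.345 to 0.136, so matched pairs are not established. Paired by number, the share was lower at 22 h in 3 of 3, with differences of -0.772, -2.19 and -3.62 points. The exact sign-flip permutation p was 0.25, the smallest possible with 3 pairs. Without IF 22 h replicates 2 and 3 the 22 h difference between IF and DC was 1.12 points.

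Most single genes were lower as well. In the test across all 10831 genes with enough counts (edgeR quasi-likelihood, adjusted p under 0.05), 42 of the 72 members fell at IF 8 h against unstimulated cells and 1 rose, where 4.72% of all tested genes fell and 3.04% rose. At DC 8 h 52 members fell and 1 rose, against 4.07% and 2.75% of all genes. At IF 22 h 23 fell and 1 rose, against 3.44% and 2.63%, and at DC 22 h 63 fell and 1 rose, against 4.35% and 3.41%. All 4 comparisons use the same unstimulated libraries. The members' median log2 fold change with DC was -0.54 after 8 h and -0.75 after 22 h, beside 0.04 for all genes in each case. With IF it was -0.47 after 8 h, beside 0.02 for all genes, and -0.37 after 22 h, beside 0.01. The 3 stimulated libraries all lay below the 3 unstimulated ones for 66 members at IF 8 h (16.4% of all genes), 68 at DC 8 h (15.2%), 54 after 22 h of IF (14.7%) and 68 after 22 h of DC (14.2%).

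**Figure D2:**
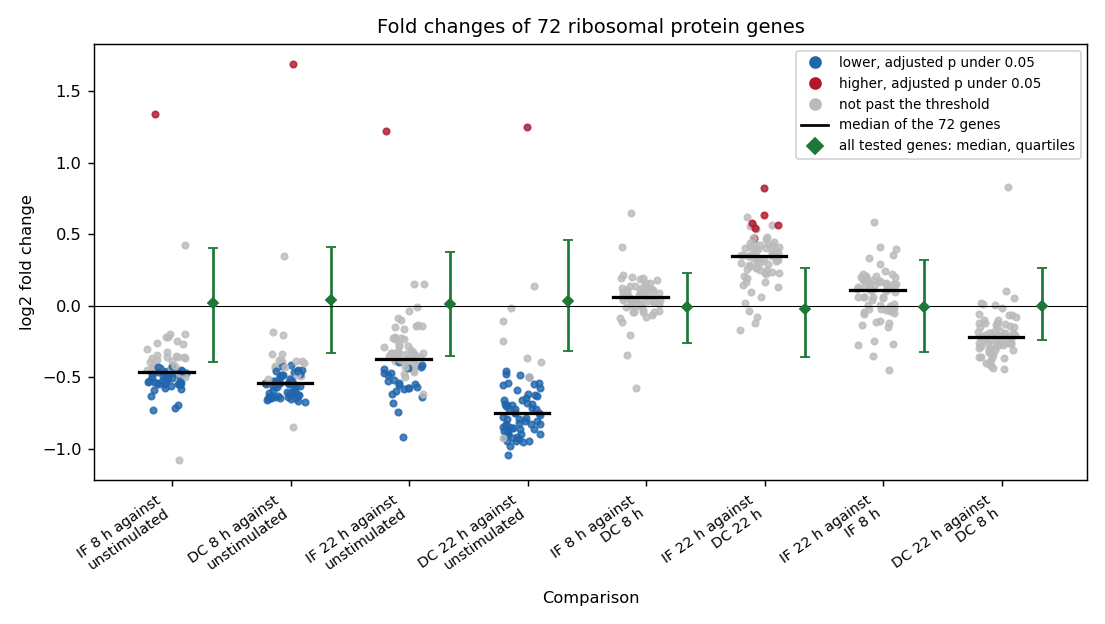
log2 fold change (y axis) of the 72 ribosomal protein genes in 8 comparisons (x axis), each point a gene coloured by the edgeR call; black lines are members' medians, and green diamonds with bars are the median and quartiles of all 10831 tested genes. Members' medians lie below 0 in the 4 comparisons with unstimulated cells, with Rps27l alone above the threshold on the higher side, and at 0.35 for IF against DC at 22 h.

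The counts rest on how libraries are scaled and on each library. Scaling by library size alone moved the median of all genes by more than 0.1: it lay at 0.26 and 0.30 on the log2 scale after 8 h of IF and DC, and at 0.22 and 0.37 after 22 h. In the same order, the members' medians under that scaling were -0.22, -0.27, -0.17 and -0.42, and members called higher and lower were 1 and 2 with IF and 1 and 6 with DC after 8 h, and 1 and 7 and 1 and 40 after 22 h. Of all genes, 2.44%, 2.03%, 2.00% and 2.14% were then lower and 7.84%, 7.93%, 5.73% and 12.5% higher in that order. In either direction 4.17% and 9.72% of members were called after 8 h, no more than the 10.3% and 9.96% of all genes. After 22 h the members' shares were 11.1% and 56.9%, against 7.74% and 14.6%. Leaving out any 1 of the 6 libraries compared gave 10 to 21 calls at IF 8 h and 53 to 61 at DC 22 h. At DC 8 h it gave 17 to 33, or 46 without DC 8 h replicate 3. At IF 22 h it gave 8 without IF 22 h replicate 3, 8 to 14 without 1 unstimulated library and 20 or 22 without IF 22 h replicates 1 or 2. In those fits the members' median was -0.499 to -0.425 at IF 8 h and -0.586 to -0.496 at DC 8 h. After 22 h it was -0.466 to -0.252 with IF and -0.779 to -0.688 with DC. Calls over all genes are not set beside these counts, so the counts do not show a change particular to members. Of the calls of members chosen for naming, 3 of 14 at IF 8 h (Rpl5, Rps4x and Rpsa), 5 of 16 at DC 8 h (Rpl5, Rps18, Rps27l, Rps4x and Rpsa), 5 of 13 at IF 22 h (Rpl5, Rpl19, Rps7 and Rpsa among them) and 15 of 20 at DC 22 h passed in every fit without 1 library; the rest each lost the threshold in at least 1.

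With IF 22 h replicate 1 alone, Rpl5 and Rpsa still passed against unstimulated cells (-0.78 and -0.83 on the log2 scale, edgeR adjusted p of 0.0173 and 0.00981). The other 10 members chosen for naming that fell at IF 22 h kept their direction, with log2 fold changes of -0.40 to -0.85, and did not pass, with edgeR adjusted p of 0.0519 to 0.283. Among all genes, calls went from 658 to 99 in that fit of 1 library.

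Other abundant genes also held falls. Of 160 genes with a mean of at least 500 CPM, neither ribosomal nor mitochondrial, 28.1% fell after 8 h and 13.8% after 22 h with IF, and 23.8% and 30.6% with DC. Of the 66 ribosomal protein genes at that level, 62.1% and 34.8% fell with IF and 74.2% and 90.9% with DC. The difference between these shares was not tested.

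Genes of both subunits fell. At DC 22 h 36 of 42 large-subunit genes and 27 of 30 small-subunit genes fell, with median log2 fold changes of -0.71 and -0.81. At IF 22 h the counts were 13 of 42 and 10 of 30, with medians of -0.33 and -0.40. No test of the difference between subunits was made. Across the 72 genes, unstimulated cells had the highest mean for 69 and DC 22 h the lowest for 61.

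**Figure D3:**
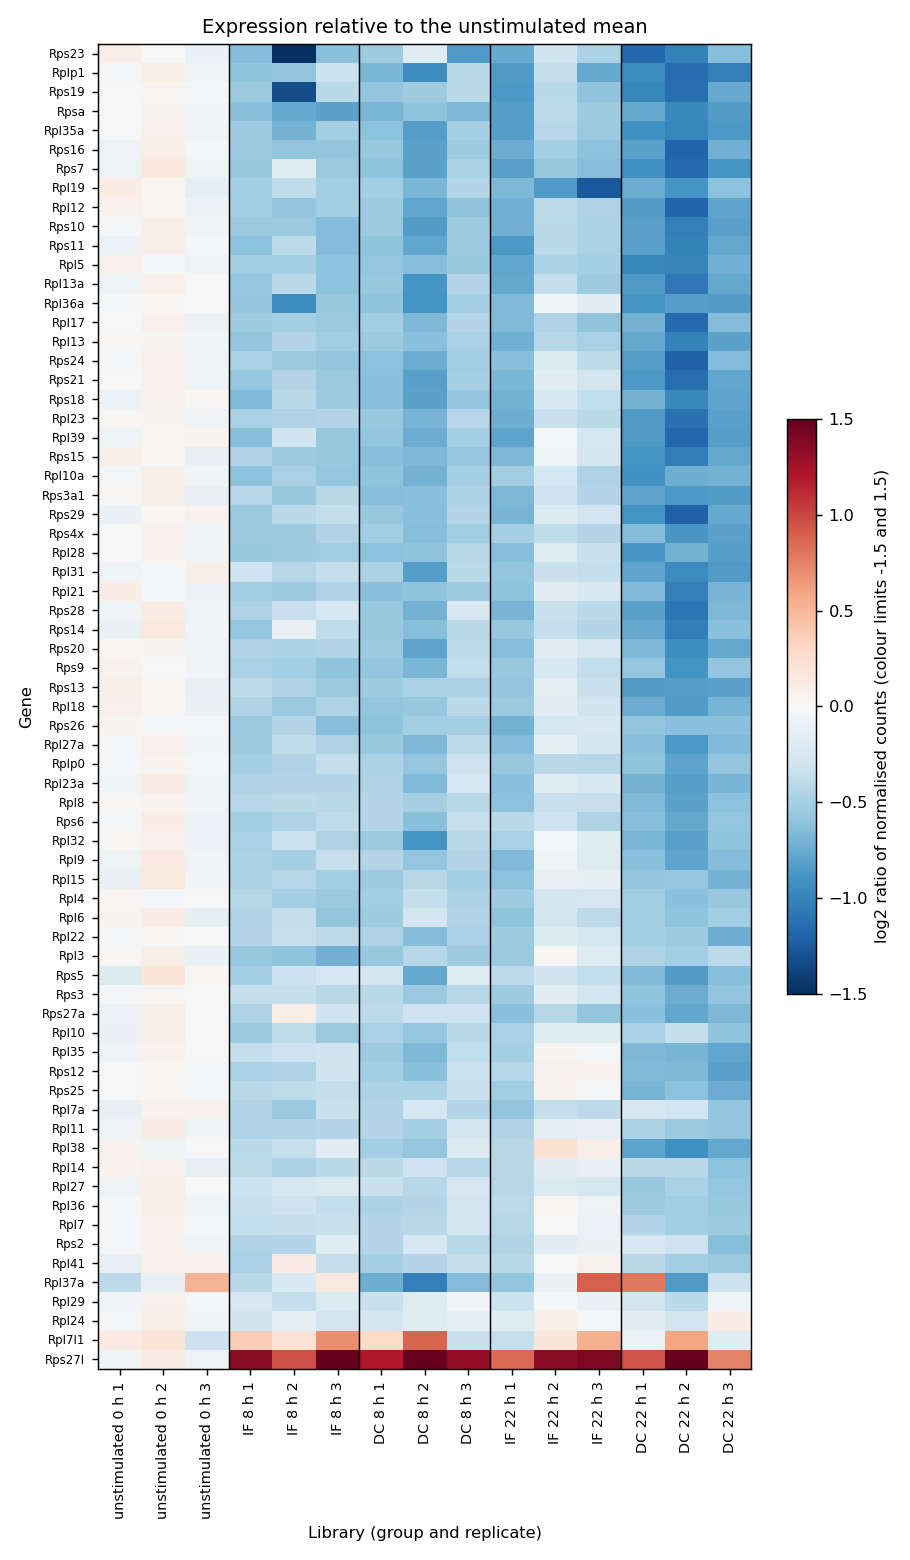
log2 ratio of each gene's normalised count to its mean over the unstimulated libraries (colour, limits -1.5 and 1.5) for 69 of the 72 genes (rows, ordered by their mean in stimulated libraries) and 15 libraries (columns). Blue fills nearly all stimulated columns, the bottom row is Rps27l, and IF 22 h replicates 2 and 3 are paler than replicate 1.

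Among large-subunit proteins, Rpl5 binds 5S ribosomal RNA and, when free of the ribosome, the p53 ligase Mdm2. Its normalised counts were 12521, 11729 and 11313 CPM in unstimulated cells, 8218, 8402 and 7735 CPM at IF 8 h and 7933, 7585 and 7956 CPM at DC 8 h. At 22 h they were 6891, 8492 and 8403 CPM with IF and 6025, 5911 and 7169 CPM with DC. All stimulated libraries lay below all unstimulated ones. Rpl5 fell by 0.55 and 0.60 on the log2 scale after 8 h of IF and DC (SE 0.11 each, edgeR adjusted p of 0.00713 and 0.00334) and by 0.58 and 0.90 after 22 h (SE 0.11 each, edgeR adjusted p of 0.00479 and 0.000181).

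Rpl11, its partner in the 5S particle, fell at IF 8 h, DC 8 h and DC 22 h, and its log2 fold change at IF 22 h was -0.23 (edgeR adjusted p = 0.293). Rpl3, which lies near the peptidyl transferase centre, had its lowest fold change at IF 8 h, -0.63 on the log2 scale (edgeR adjusted p = 0.00997), and did not pass at IF 22 h, at -0.23. Rpl10, which joins the large subunit late in assembly, fell in the same 3 comparisons, at -0.48 to -0.50. Rpl39, a small protein of the exit tunnel, fell at DC 8 h by 0.61 and at DC 22 h by 0.95 on the log2 scale. Rpl22, which is needed for alpha-beta T cell development, fell by 0.53 and 0.59 on the log2 scale at the DC times. Its normalised counts were 871.1, 898.9 and 893.1 CPM in unstimulated cells and 625.3, 614.2 and 532.6 CPM at DC 22 h, with no overlap. Rpl36a, which lies near the exit site for tRNA, read 894.4, 922.2 and 908.2 CPM in unstimulated cells and 600.7, 472.4 and 611.4 CPM at IF 8 h, again without overlap. It fell by 0.69 on the log2 scale there (SE 0.16, edgeR adjusted p = 0.0164) and had -0.28 at IF 22 h, which did not pass.

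The stalk protein Rplp1, part of the landing site of elongation factors, gave the lowest called fold change at DC 22 h. Its counts were 9174, 9867 and 8887 CPM in unstimulated cells and 4791, 4201 and 4586 CPM at DC 22 h. The groups were far apart, and the log2 fold change was -1.04 (SE 0.15, edgeR adjusted p = 0.000554). Rplp0, which anchors the stalk, fell in all 4 comparisons, by 0.44 to 0.66 on the log2 scale. The partner Rplp2 was counted at a mean of 2.05 CPM and is no member.

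Among small-subunit proteins, Rpsa, also known as the laminin receptor, gave the smallest adjusted p among members at IF 8 h. Its counts were 11207, 11709 and 10878 CPM without stimulation and 7310, 6611 and 6448 CPM at IF 8 h. It then stood at 6328, 8590 and 7799 CPM at IF 22 h and 6655, 5751 and 6282 CPM at DC 22 h. Every stimulated library was below the lowest unstimulated one, and the log2 fold change at IF 8 h was -0.73 (SE 0.12, edgeR adjusted p = 0.000987). Rps6, the substrate of the S6 kinases, stood at 12628, 13797 and 12105 CPM without stimulation and at 8259, 7503 and 8606 CPM at DC 22 h. It fell in all 4 comparisons, by 0.39 to 0.66 on the log2 scale.

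Rps4x, whose gene lies on the X chromosome, fell in all 4 comparisons, with -0.77 at DC 22 h (edgeR adjusted p = 0.000324). Rps3, a head protein of the small subunit that also acts in DNA repair, fell at the DC times, with -0.46 and -0.64, and its values of -0.38 and -0.31 at the IF times did not pass. Rps27a, made as a fusion with ubiquitin, fell at 22 h, with -0.55 with IF and -0.69 with DC, while its log2 fold changes at 8 h were -0.20 and -0.34 and did not pass. Rps19, the gene most often mutated in Diamond-Blackfan anaemia, passed at IF 8 h, with a log2 fold change of -0.71, and at DC 22 h, with -0.95. At IF 8 h replicate 2 stood apart, at 984.3 CPM against 1682 and 1855 CPM in the others, and without it the value was -0.48 (edgeR adjusted p = 0.0893).

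Rps7 and Rps29 had the lowest fold changes at DC 22 h among small-subunit genes. Rps7, which binds Mdm2 as Rpl5 does, read 9545, 11169 and 9501 CPM in unstimulated cells and 5348, 4486 and 5460 CPM at DC 22 h. The groups did not overlap, and the log2 fold change was -0.98 (SE 0.14, edgeR adjusted p = 0.000355). Rps29, a small zinc-binding protein, read 3159, 3445 and 3532 CPM without stimulation and 1806, 1455 and 2000 CPM at DC 22 h, a log2 fold change of -0.95 (SE 0.15, edgeR adjusted p = 0.000932). Rps18, at the head of the small subunit, gave the lowest called fold change at DC 8 h. It read 3732, 4124 and 4014 CPM without stimulation and 2570, 2262 and 2629 CPM at DC 8 h, and fell by 0.67 on the log2 scale (SE 0.13, edgeR adjusted p = 0.0057).

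In all, 20 members fell in each of the 4 comparisons, 22 in 3, 13 in 2, 8 in 1 and 9 in none. Of all tested genes, 1.08% fell in each of the 4, 1.28% in 3, 2.01% in 2, 4.39% in 1 and 91.2% in none. The 9 without a fall are Rps27l, Rpl7l1, Rpl24, Rpl29, Rpl41, Rpl7a, Rps2, Rps23 and Rpl37a. Rpl24 and Rpl29, picked after their values were seen, had log2 fold changes of -0.04 to -0.25 and -0.15 to -0.27 over the 4 comparisons.

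Rps27l, a paralogue of Rps27 that is a target of p53, was the one member that rose. It stood at 65.91, 74.10 and 66.10 CPM in unstimulated cells. The 12 stimulated libraries ranged from 114.5 to 334.7 CPM, with 174.7, 133.3 and 214.3 CPM at IF 8 h and 157.1, 334.7 and 172.7 CPM at DC 8 h. At 22 h the values were 124.0, 174.5 and 181.2 CPM with IF and 132.0, 244.7 and 114.5 CPM with DC. No stimulated library overlapped the unstimulated ones. The log2 fold changes were 1.34 (SE 0.31) at IF 8 h, 1.69 (SE 0.31) at DC 8 h, 1.22 (SE 0.31) at IF 22 h and 1.25 (SE 0.31) at DC 22 h, with edgeR adjusted p of 0.0149, 0.00326, 0.0273 and 0.0194. The call at DC 8 h passed in every fit without 1 library. At IF 8 h it was lost without unstimulated replicate 1 or 3 or IF 8 h replicate 3, and at 22 h without any 1 unstimulated library, IF 22 h replicate 2 or 3 or DC 22 h replicate 2, with edgeR adjusted p of 0.0568 to 0.105. Without IF 22 h replicates 2 and 3 together the log2 fold change at IF 22 h was 0.85. Over all alternative fits it was 1.16 to 1.58 at IF 8 h and 1.26 to 1.95 at DC 8 h. After 22 h the log2 fold change of Rps27l was 0.85 to 1.42 with IF and 0.86 to 1.59 with DC. Its log2 difference between IF and DC was -0.35 at 8 h and -0.03 at 22 h, and neither passed the test.

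**Figure D4:**
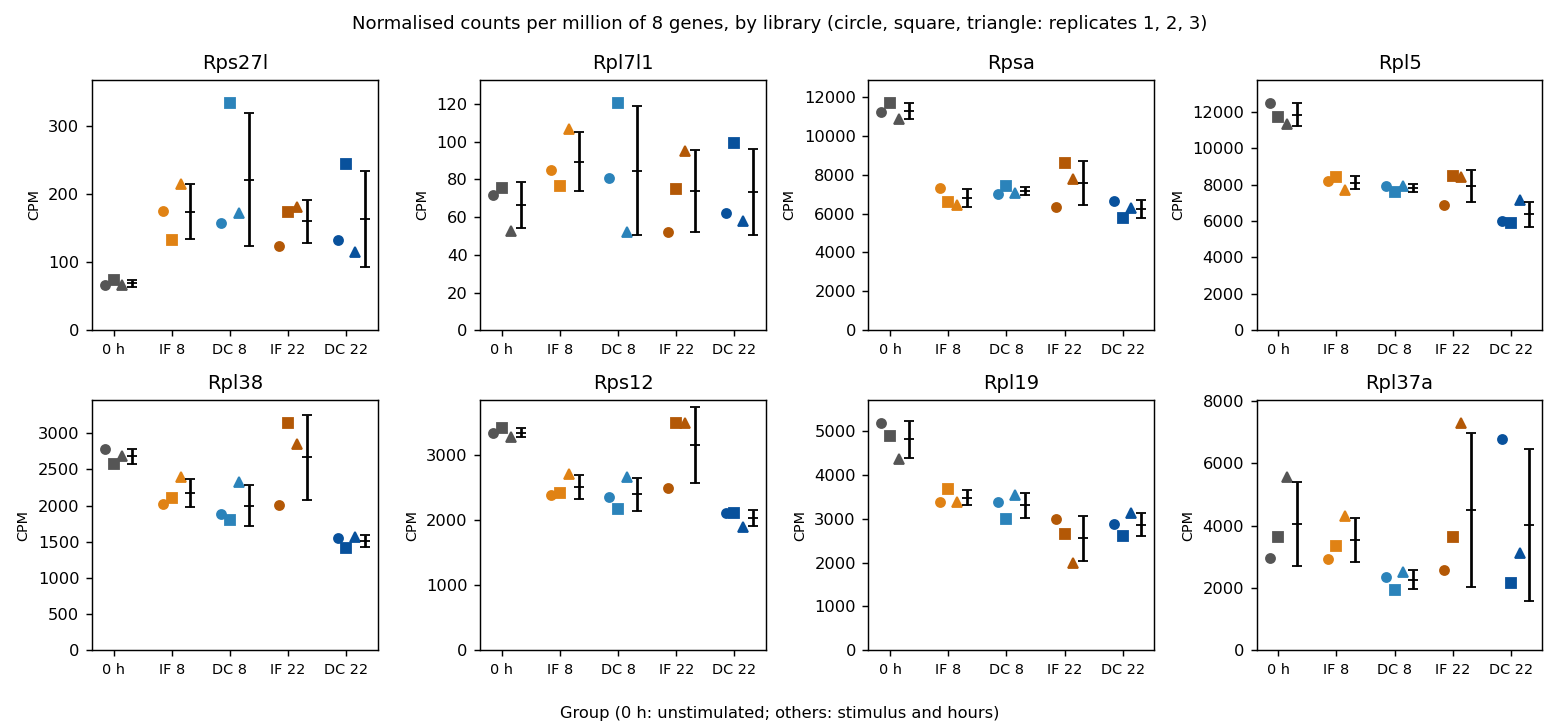
Normalised counts in CPM (y axis, from 0) of 8 members in each library by group (x axis: 0 h is unstimulated; IF and DC with hours); black bars are the mean and SD of 3 libraries. Rps27l is higher in all stimulated libraries, Rpsa and Rpl5 lower, Rpl38 and Rps12 lower at DC 22 h than at IF 22 h, Rpl19 lowest in IF 22 h replicate 3, and Rpl37a spreads widely within groups.

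Rpl7l1, a paralogue of Rpl7, was the other member with positive estimates in all 4 comparisons, at 0.42, 0.35, 0.15 and 0.14, and none passed the edgeR test. Its unstimulated libraries ranged from 52.60 to 75.54 CPM; the IF 8 h libraries, at 85.1, 76.25 and 106.9 CPM, lay above that range and the other groups overlapped it. Among other paralogues, Rpl36al was well expressed, at group means of 464.4 to 607.5 CPM, whereas Rpl22l1, Rpl10l and Rpl3l averaged 0.262, 0.129 and 0.0296 CPM, and Rpl39l and Rps4y2 1.81 and 1.47 CPM.

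The next question was whether the type of stimulus set the level of these genes. At 22 h a few were higher with IF than with DC in the fit of all groups, led by Rpl38. At 8 h edgeR called none of the 72 members, 1 had an unadjusted p under 0.05, DESeq2 called none, and 0.665% of all genes were called; the median log2 fold change of IF against DC was 0.06. At 22 h 6 members were higher with IF by edgeR and none lower, against 1.23% of all genes higher and 1.20% lower, with a median log2 difference of 0.35 beside -0.02 for all genes. With replicate number as a block 3 of the 6 calls were left (Rpl38, Rps12 and Rpl35), and Rps15, Rps25 and Rps13 had edgeR adjusted p of 0.0528 to 0.0636. The median log2 difference with the block was 0.34, and calls over all genes went from 263 to 245. A fit of these 2 groups alone called no member, with a median log2 difference of 0.32, and calls over all genes went from 263 to 70. The libraries did not overlap, with IF above DC, for 44 of the 72 members, where 10.7% of all genes were so placed.

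Rpl38, a small surface protein of the large subunit linked to selective translation of Hox mRNAs, had the largest difference. Its counts were 2014, 3146 and 2846 CPM at IF 22 h and 1546, 1411 and 1571 CPM at DC 22 h, next to 2781, 2571 and 2686 CPM in unstimulated cells. IF 22 h replicates 2 and 3 thus lay above the unstimulated range, while replicate 1 and all DC 22 h libraries lay below it. The log2 difference was 0.82 (SE 0.15, edgeR adjusted p = 0.00804). The other called genes were Rps12 at 0.63, Rpl35 at 0.58, Rps15 at 0.56, Rps25 at 0.54 and Rps13 at 0.47, with adjusted p of 0.0207 to 0.0392. Rps12 read 2490, 3501 and 3495 CPM with IF and 2115, 2106 and 1896 CPM with DC, again without overlap. Rps25, a small-subunit protein used by viral internal ribosome entry sites, read 2007, 2989 and 2832 CPM with IF and 1778, 1873 and 1721 CPM with DC. In both genes IF 22 h replicate 1 was the nearest to the DC libraries. Rpl39 had a difference of 0.62, just short of the threshold (edgeR adjusted p = 0.0606).

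The number of calls depended on single libraries. Leaving out IF 22 h replicate 2 or replicate 3 gave no member called, and leaving out replicate 1 gave 37, the 6 among them. Over the fits without 1 library the members' median log2 difference was 0.273 to 0.444. Calls over all genes in those fits are not set beside the counts, so the counts do not show a change particular to members. Replicate 1 alone gave a median log2 difference of 0.12; it called no member, in a fit where calls over all genes went from 263 to 8. Leaving out DC 22 h replicate 1, 2 or 3 gave 1, 4 and 3 calls, of which 1, 4 and 2 were among the 6. Of the 72 members, 69 were higher in both IF 22 h replicates 2 and 3 than in replicate 1, where 41.1% of all genes were so placed; the members' median difference was 0.33 on the log2 scale. Replicate 1 alone exceeded every DC 22 h library for 44 members (24.2% of all genes), and replicates 2 and 3 each for 65 (27.8% and 25.4% of all genes). The part of the low mitochondrial ribosomal RNA of replicates 2 and 3 in this result was not tested.

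Rpl19, a large-subunit protein that forms a bridge to the small subunit, ran the other way within IF 22 h. It read 2999, 2655 and 1996 CPM in replicates 1, 2 and 3, so that replicates 2 and 3 were both below replicate 1. It had the lowest fold change among called members against unstimulated cells at IF 22 h, -0.92 on the log2 scale (SE 0.14, edgeR adjusted p = 0.000986). In replicate 1 alone the value was -0.68 (edgeR adjusted p = 0.0755, with the spread taken from the other groups).

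Between 8 and 22 h no member was called for either stimulus. With IF the median log2 change was 0.11, 5 members had an unadjusted p under 0.05 in edgeR, and DESeq2 called none, against 1.12% of all genes called by edgeR. Without IF 22 h replicates 2 and 3 this median was -0.14. Leaving out replicate 1 gave 5 member calls, with no count over all genes set beside them. With DC the median was -0.22, 19 members had an unadjusted p under 0.05 in edgeR and DESeq2 called none, against 0.480% of all genes. At DC 22 h 32 members lay wholly below DC 8 h, where 6.99% of all genes did so. Rpl5 had a log2 change of -0.30 and Rpl38 of -0.41 between the DC times, and neither passed.

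The difference between stimuli was not shown to change with time. The interaction, IF against DC at 22 h minus the same at 8 h, was positive for 66 of the 72 members with a median of 0.28, and edgeR called none, with 13 at an unadjusted p under 0.05; DESeq2 called none, and edgeR called 0.00% of all genes. For Rpl38 it was 0.70 (SE 0.22). Leaving out IF 22 h replicate 1 gave 4 calls, with no count over all genes set beside them.

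The spread between replicates differed by group. The coefficient of variation had a median over members of 5.29% in unstimulated cells, 5.37% and 14.2% with IF after 8 and 22 h, and 7.94% and 8.30% with DC. In the same order it exceeded 20% for 1, 6, 9, 4 and 3 members. Rps27l was among them at IF 8 h, DC 8 h and DC 22 h. The widest values, picked after they were seen, were those of Rps23, at 363.7 CPM in IF 8 h replicate 2 against 1752 and 1778 CPM in the other 2 libraries, and of Rpl37a, at 6773, 2172 and 3135 CPM in the DC 22 h libraries. Neither was called in any comparison. Rps27a stood at 4147 CPM in that same IF 8 h library, above the unstimulated libraries, against 2820 and 3160 CPM in replicates 1 and 3.

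Of 4 tested genes for ribosomal proteins with symbols outside the rule, 2 and 1 fell with IF after 8 and 22 h and 2 and 3 with DC. Of all genes, 4.72% and 3.44% fell with IF and 4.07% and 4.35% with DC. Gnb2l1, the symbol here for the small-subunit scaffold Rack1, fell in all 4 comparisons with unstimulated cells, with log2 fold changes of -0.47 to -0.85, and still passed in IF 22 h replicate 1 alone, at -0.70 (edgeR adjusted p = 0.0498). Fau, made as a fusion with a ubiquitin-like protein, had a log2 fold change of -0.84 at DC 22 h (edgeR adjusted p = 0.0101) and did not pass in the other 3, at -0.25 to -0.49. Rpl36al did not pass in any of the 4, at -0.09 to -0.39.

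A list of 20 tested genes taken as carrying TOP tracts held translation factors and several other genes. Among the others are Npm1, which is also in the ribosome biogenesis list, and Vim, an intermediate filament gene. Without Vim, 4 and 1 of 19 fell with IF after 8 and 22 h, where 4.72% and 3.44% of all genes fell. With DC 3 and 3 of 19 fell, where 4.07% and 4.35% of all genes fell, and none rose with either stimulus. The medians were -0.23 and -0.10 for IF and -0.23 and -0.15 for DC; in IF 22 h replicate 1 alone the median was -0.14 and none passed, Vim again left out. The elongation factor Eef1b2 fell in 3 of these, by 0.72 on the log2 scale at DC 22 h (edgeR adjusted p = 0.00119). Vim itself fell by 1.96 to 2.96 on the log2 scale.

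Of 49 nucleolar ribosome biogenesis genes tested, 3 rose at IF 8 h, 2 at DC 8 h and 3 at DC 22 h, where 3.04%, 2.75% and 3.41% of all genes rose; nothing is read from counts this small. None fell, and the medians were 0.50, 0.45 and 0.48. Nucleolin (Ncl), which binds ribosomal RNA precursors, rose by 1.23 (SE 0.27) at IF 8 h on the log2 scale (edgeR adjusted p = 0.0102). At IF 22 h edgeR called none, with 8 at an unadjusted p under 0.05 and 1 called by DESeq2, and a median of 0.19, or 0.20 in replicate 1 alone. Of 14 chaperones and carriers of single ribosomal proteins edgeR and DESeq2 called none in the 4 comparisons, with 1 or 2 at an unadjusted p under 0.05.

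Among 18 regulators, Rps6ka1, a kinase that phosphorylates Rps6, fell in all 4 comparisons, by 0.58 to 0.94 on the log2 scale. Zfp36l2, an mRNA decay factor, fell in 3, by 1.45 on the log2 scale at DC 22 h, and was 0.96 higher with IF than with DC at 22 h (edgeR adjusted p = 0.0427). Eif4ebp1, a repressor of the cap-binding protein eIF4E that mTOR inactivates, rose at IF 22 h (0.96, edgeR adjusted p = 0.0438), and Larp4, which binds mRNA tails, at DC 22 h (0.99, edgeR adjusted p = 0.0306). In IF 22 h replicate 1 alone none of the 18 passed, with Rps6ka1 at -0.49 and Eif4ebp1 at 1.08 against unstimulated cells and Zfp36l2 at 0.52 against DC 22 h.

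The 12 genes of the symbol rule below 10 CPM include members of every ribosome, such as Rps27, Rpl37, Rpl26, Rpl30 and Rpl34, at means of 0.289 to 5.39 CPM. Ribosomal protein genes have many processed pseudogenes, and reads that match several copies may be split or dropped by the authors' counting, which the sources do not describe. In GENCODE vM21 transcripts, a median of 49.0% of 60-base words from the last 300 bases of members also occurred in another gene, and 65 of the 72 shared at least one. For the 11 of the 12 low genes that were matched, the median was 35.7%. Levels are uncertain wherever such words are shared, and 33 members shared over 50% of them. Among genes described here, all words were shared in Rpl36a, and the share was 95.9% in Rpl35, 88.1% in Rpl10, 86.3% in Rps27a, 85.8% in Rps12, 82.6% in Rps6 and 80.5% in Rpl24. It was 0.415% in Rpl37a and 3.18% in Rpl7l1. Rpl19, Rpl24 and Rpl13a overlap Gm11629, Gm28037 and Gm45713 on their own strand. Rpl35, Rpl5, Rps18, Rps25 and Rps27a, among other members, overlap genes on the other strand. Without known strand handling those reads cannot be told apart. In bulk RNA, a lower value cannot be told apart between fewer cells that carry a transcript and less of it per cell, and the normalised counts are relative to the other RNA of a library, so they give no amount per cell.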

How the data were processed

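Sorted CD8+ OT-I T cells were sequenced in 15 libraries, 3 in each of 5 groups. Per the labels' protocols, libraries were made by an adapted CEL-seq method; the submitters' processing notes name BWA and mm10, and the counting program, annotation, strand and use of molecular identifiers are not given in the sources used here. The deposited values are raw counts per gene. Here, counts were scaled by TMM (edgeR 4.0.16, R 4.3.3) and filtered with filterByExpr (minimum count 10, minimum total 15), which left 10831 genes, and tested with edgeR's quasi-likelihood test over all 15 libraries and 5 group means, with Benjamini-Hochberg adjustment over all genes and a threshold of 0.05. CPM are TMM-scaled. DESeq2 1.42.0 and the other settings in the closing section were alternatives. Scripts were tested on simulated data. Shares used two-sided exact permutation tests. Filtered-out genes held 0.065% to 0.124% of counts. No replicates agreed within sampling noise (chi-square per degree of freedom 9.5 to 98.1).

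Members and gene lists were chosen with earlier results of these data known. Named members were, in each comparison, those past the threshold (where more than 10, the 4 highest and 4 lowest fold changes among them) and a panel of 20 symbols; up to 3 genes a list were named by smallest p, as were proteins outside the rule. A few members and neighbouring genes are not reported here by name; counts and medians include them. The promoter window (30 bases each side, runs of 8), the CCGGAA motif, the 60-base words and the 500 CPM class were chosen after seeing the data, each run at 1 setting. Also chosen after seeing the data were the DC pairs, the list of TOP genes without Vim and the gene lists without IF 22 h replicates 2 and 3. Promoters are RefSeq GRCm38.p6. No protein sequences were used here. Deviations from group means of same-numbered DC 8 h and DC 22 h libraries correlated at 0.136, 0.439 and 0.267 over genes. Differently numbered libraries of these groups correlated at -0.345 to 0.136, so the pairs are not established. The replicate numbers were also used as pairs (from the data, not from the labels). No other pair of groups met 0.1 in all 3.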

Additional observations from a re-analysis of the deposited data

How the results depend on the processing

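The direction of the members' median held under every scaling and filter tried. Counts of members called moved under library size alone to 3 (IF 8 h), 7 (DC 8 h), 8 (IF 22 h) and 41 (DC 22 h) against unstimulated cells and 2 for IF against DC at 22 h, with medians of -0.22, -0.27, -0.17, -0.42 and 0.22; this scaling also moves the median of all genes, and called 10.3%, 9.96%, 7.74%, 14.6% and 2.47% of all genes, against 4.17%, 9.72%, 11.1%, 56.9% and 2.78% of members. At a threshold of 0.01 they were 6, 14, 7 and, for IF against DC at 22 h, 1, beside 267, 307, 251 and 89 of all 10831 genes. DESeq2 called 39 at IF 22 h and 22 for IF against DC at 22 h, while calls over all genes went from 658 to 1066 and from 263 to 563. For the latter, TMM without ribosomal and mitochondrial genes gave 10 and the groups compared alone 0. With no low-count filter DC 22 h against DC 8 h and the interaction gave 1 call each. Calls over all genes then went from 52 to 251 and from 0 to 155. Without IF 22 h replicates 2 and 3, which leaves 1 library, IF 22 h had 7 calls with a median of -0.62 and a share difference of -5.68 points; IF against DC at 22 h had 0 calls, a median of 0.12 and 1.12 points; IF 22 h against IF 8 h had a median of -0.14 and -1.73 points. Outside mitochondrial counts the share differences were -4.94 points at IF 8 h and -8.31 at DC 22 h. The cause of these changes was not tested.

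Leaving out 1 library gave 10 to 21 calls at IF 8 h, 17 to 46 at DC 8 h, 8 to 22 at IF 22 h, 0 to 37 for IF against DC at 22 h, 0 to 5 for IF 22 h against IF 8 h and 0 to 4 for the interaction, and medians of -0.47 to -0.25 at IF 22 h and 0.0121 to 0.22 for IF 22 h against IF 8 h. At IF 22 h the lowest counts came without IF 22 h replicate 3 or unstimulated replicate 2. Calls over all genes are not set beside these leave-one-out counts, so the counts do not show a change particular to members. With replicate number as a replicate block, IF against DC at 22 h had 3 calls, beside 245 of all genes, and a median of 0.34. No other count moved by over 1.5 times. Over all groups, deviations of same-numbered libraries correlated at -0.214 to 0.439, with 4 of 30 over 0.1, of which 3 were DC 8 h with DC 22 h, and 8 of 15 libraries correlated best with their own number. With the block in the DC groups alone, chosen after seeing the data, DC 22 h against DC 8 h again had 0 calls and a median of -0.22. Of the tests of named members, leaving out 1 library kept 242 and lost 172 calls, and no named member changed direction. Groups of 3 limit the exact test of shares to 0.1.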
